A study of Boechera stricta with 13 samples.

Results

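Plants of Boechera stricta grown under a progressive water deficit, without herbivores, were compared with well-watered plants by RNA sequencing of whole shoots. The genes described are all those that the authors' test listed as differing between the drought group and the control group with both populations pooled, 176 of the 3112 identifiers listed in any comparison of the series. Of these, 106 were higher and 70 lower in drought.

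Boechera stricta is a wild perennial relative of Arabidopsis. The series holds 13 plants, 7 of the high elevation Big Horns population and 6 of the low elevation Black Hills population, in 4 treatments. The comparison described here rests on 6 of them. Each population gave 1 well-watered control plant and 2 drought plants, so there were 2 control and 4 drought plants. Herbivory was feeding by larvae of the beet armyworm Spodoptera exigua, on 2 plants without drought (1 per population) and on 5 plants with drought (3 of Big Horns and 2 of Black Hills). Water was withheld step by step over several weeks, and the drought plants were watered again to a milder stress before larvae were added to other plants. Control and drought plants carried no larvae and were caged like the fed plants. All sequenced plants of a population came from 1 uniparental line, so a population stands for 1 genotype. Watering was applied to whole flats, so that differences between flats were part of the treatment. The libraries of each population ran in a sequencing lane of their own, and population and lane cannot be told apart.

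A slow water deficit is sensed in leaves largely through abscisic acid, a hormone that closes stomata and activates transcription factors binding to drought-responsive promoters. Known outputs in Arabidopsis include late embryogenesis abundant proteins and dehydrins, which protect cell structures, enzymes that make compatible solutes such as proline and raffinose, and water channels. Genes of growth and photosynthesis are commonly lowered. The files pair no identifier with a gene symbol, so no listed gene could be assigned to these groups, and 0 of 181 symbols in 12 gene lists on these topics matched. The genes are therefore described by level, size of change and population, and by rank of fold change within a direction among the 173 genes with at least 1 FPKM in both groups.

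FPKM counts sequenced fragments relative to transcript length and to the mapped total, and is given here for each group as derived from the authors' summed FPKM and fold change. There is 1 such value per group, so the depth of each library and the spread among the drought plants are unknown, and no test across plants was run. The q-values are those of the authors' test (Cuffdiff2), adjusted by the authors. The smallest q, 0.00782, was shared by 67 genes (39 higher and 28 lower), so q does not rank the strongest changes, and the largest q was 0.0492.

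In the control plants the genes that fell were more abundant than the genes that rose. A list chosen by this contrast favors such a difference by itself, and the medians of the higher group were close (49.9 and 45.3 FPKM). The median of the 106 higher genes was 13.5 FPKM in control and 49.9 FPKM in drought. For the 70 lower genes the median was 45.3 FPKM in control and 14.0 FPKM in drought. The fold change of the rises ranged from 2.05 to 37.47 with a median of 3.36, and that of the falls from 2.13 to 14.8 with a median of 2.90. At least 4-fold higher were 42 genes, 23.9% of those listed, and at least 4-fold lower were 19 genes, 10.8% of those listed. The number of genes that the authors tested is unknown, so these shares are of the listed genes only, and the list itself was chosen by this contrast. The smallest listed fold change was 2.27 among the 38 genes whose higher group lay under 20 FPKM and 2.21 among the 34 genes whose higher group reached 100 FPKM.

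**Figure D1:**
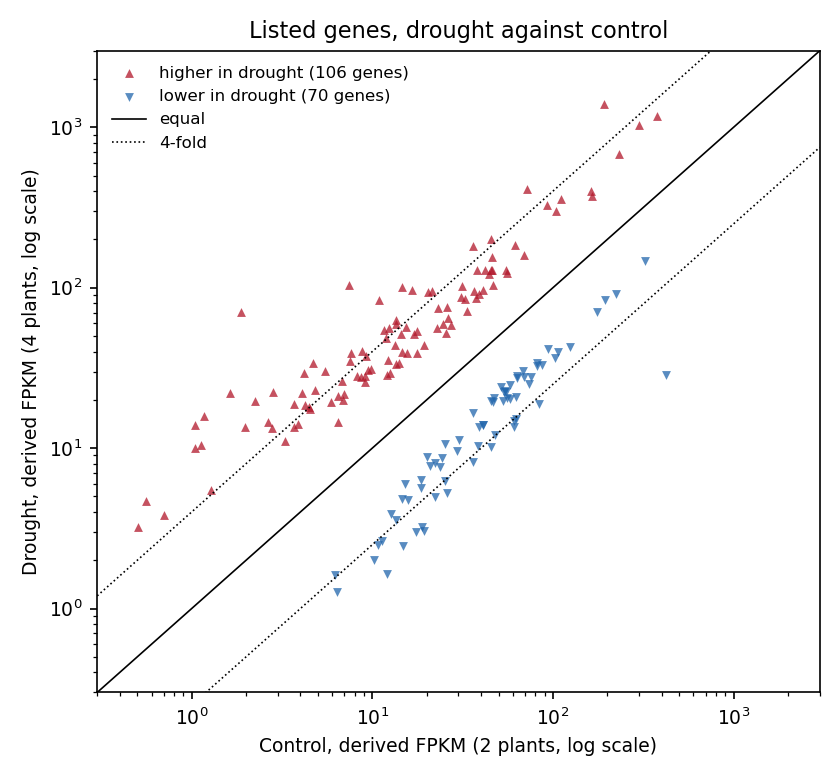
Derived FPKM of the 176 listed genes in control (horizontal) and drought (vertical), both on log scales. Each point is a gene, the solid line marks equal levels and the dotted lines a 4-fold change. No point lies near the solid line because only called genes are listed.

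Summed over genes, the rises added 8415 FPKM and the falls removed 2764 FPKM. The 5 genes with the largest gains carried 41.9% of the former, and the 5 with the largest losses 33.5% of the latter. The largest gain belonged to the 11th rise by fold, from 193 to 1405 FPKM (7.29-fold, q = 0.0460). In Big Horns this gene went from 234 to 2357 FPKM and in Black Hills from 152 to 388 FPKM. It was abundant in both control plants, and both populations are listed as higher. The second largest gain was of an assembled transcript without a genome identifier in its row, from 378 to 1177 FPKM, which was a rise from 65.0 to 709 FPKM in Big Horns and from 708 to 1672 FPKM in Black Hills. The control plants of the populations were thus far apart for this transcript, and its level in the Black Hills control plant lay close to that of the Big Horns drought plants.

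The strongest rise by fold was Bostr.13671s0251, from 1.87 FPKM in control to 70.2 FPKM in drought (37.47-fold, q = 0.00782). Within Black Hills it is listed as rising from 2.69 to 22.6 FPKM (8.43-fold). It is not listed within Big Horns, where the pooled and Black Hills values imply 1.06 FPKM in the control plant and 118 FPKM in the drought plants. In plants with both drought and larvae it reached 14.1 FPKM, a 7.90-fold rise over a control value of 1.78 FPKM in that comparison's scale. It is listed as lower with both challenges than with drought alone (5.13-fold, in a comparison that shares the drought plants).

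The second rise by fold was Bostr.0124s0032, from 7.46 to 104 FPKM (13.93-fold, q = 0.00782). It rose from 7.61 to 187 FPKM in Big Horns (24.57-fold) and from 7.29 to 15.7 FPKM in Black Hills (2.15-fold). The control plants were nearly alike, and almost all of the pooled gain came from Big Horns. Herbivory without drought gave 7.71 to 116 FPKM (15.04-fold), so drought plants and fed plants lay close in the pooled values, while drought with herbivory reached 373 FPKM. By population, herbivory without drought gave 178 FPKM in Big Horns and 50.2 FPKM in Black Hills.

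The strongest fall was Bostr.8819s0118, from 425 to 28.7 FPKM (14.8-fold, q = 0.00782). The Big Horns control plant held 784 FPKM and the Big Horns drought plants 50.9 FPKM (15.41-fold). The Black Hills levels implied by the pooled value were 65.1 FPKM in control, with limits of 11.9 and 133 FPKM, and 6.50 FPKM in drought, with limits of 3.87 and 11.4 FPKM. The pooled control value of this gene was therefore mainly that of 1 plant. The next fall by fold was Bostr.12659s0039, from 12.1 to 1.64 FPKM (7.40-fold, q = 0.0437). In Black Hills it is listed from 15.4 to 1.52 FPKM (10.17-fold), and the implied Big Horns values were 8.83 FPKM in control and 1.76 FPKM in drought. Both populations were low in drought for this gene, and with drought and larvae it was at 2.04 FPKM against 11.5 FPKM in control.

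Which population carried each change was read from the comparisons of drought with control within Big Horns and within Black Hills. These hold plants of the pooled comparison and are no independent support for it. Of the 106 rises, 44 are listed as higher within Big Horns, against 2.09% of all identifiers in any table, and 73 within Black Hills, against 31.4%. Of the 70 falls, 4 are listed as lower within Big Horns, against 0.161%, and 68 within Black Hills, against 27.4%. The populations were not listed with equal ease. The Black Hills comparison lists 1830 genes down to a 1.52-fold change, while the Big Horns comparison lists 70 genes and none under 3.13-fold. The smallest fold change and summed FPKM of the Big Horns list were then required in both populations, so that only Black Hills could lose genes. The order turned for the rises, with 44 in Big Horns and 18 in Black Hills, and kept for the falls, with 4 and 45. The Big Horns counts were thus fixed in advance.

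A gene missing from the Big Horns list was therefore not shown to be unchanged there. For the 26 genes listed in both populations, the mean of the population values divided by the pooled value was 0.937 to 1.08 in control (median 1.00) and 0.954 to 1.08 in drought (median 0.997), so the pooled FPKM was in effect the mean of the populations. The level in an unlisted population was inferred as the pooled value times 2 less the listed value, with limits from those ranges. For 7 genes the inferred control value could be set beside the same plant's value in the herbivory comparison of its population, and all 7 lay inside the limits, at 0.928 to 1.07 of that value. Inferred drought levels had no such check.

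The 164 genes listed in at least 1 population were treated this way. The inference failed for 1 of them, the 19th rise, whose Big Horns control plant held 6.10 FPKM against a pooled control of 2.65 FPKM. Its Black Hills control would lie below 0 over the whole of the limits, since the mean of the populations had to be at least 1.15 times the pooled value, outside the range above. The limits therefore do not hold for every gene, and this gene was counted as undecided and left out of the sizes of change below. Of the 164 genes, 140 had the same direction in both populations, 1 had opposite directions and 23 were undecided, all but the 19th rise because the limits of the unlisted population spanned no change. All 50 rises listed only within Black Hills were higher in drought in Big Horns as well, by an inferred 1.45-fold to 111-fold. Their median fold was 3.30 in Big Horns and 2.79 in Black Hills, and 32 of the 50 were larger in Big Horns although they are not listed there. Of the 66 falls listed only within Black Hills, 53 were lower in drought in Big Horns too, by an inferred 1.52-fold to 5.02-fold, and 13 were undecided. Of the 20 rises listed only within Big Horns, 10 were higher in drought in Black Hills, by an inferred 1.65-fold at most, and 10 were undecided. Both falls listed only within Big Horns were lower in Black Hills. A pooled call favors genes that move in both populations, and inferred and listed values are linked by arithmetic, so these counts describe the list and do not test it.

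**Figure D2:**
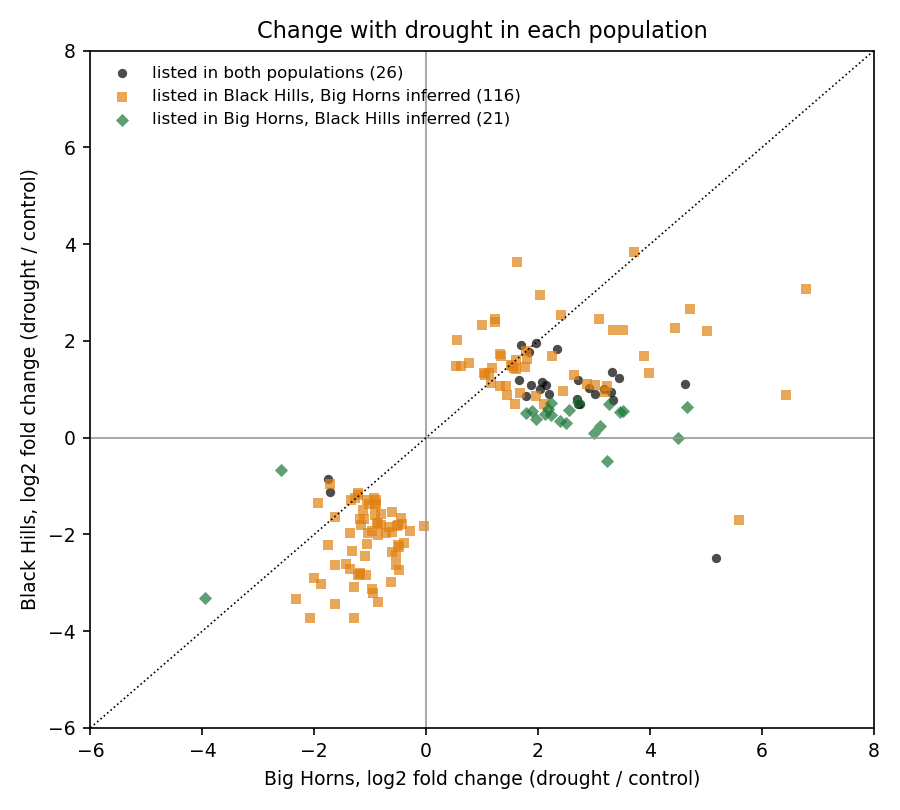
Log2 fold change with drought within Big Horns (horizontal) and Black Hills (vertical) for the listed genes with a level in both. Symbols give where the change is listed and where it was inferred from the pooled value, and the dotted line marks equal changes. Rises lie mostly below the dotted line, larger in Big Horns, and falls mostly below it too, larger in size in Black Hills. The square at lower right is a gene whose inferred Big Horns control level was close to 0, so its fold change is undecided.

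By listed and inferred values, the size of change differed between the populations in opposite ways for rises and falls. Among the 93 rises with a level above 0 in both, the median change was 4.67-fold in Big Horns and 2.17-fold in Black Hills, and 74 were larger in Big Horns. The level was inferred in Big Horns for 50 of them and in Black Hills for 19. Inferred levels are tied to the listed ones by arithmetic. How far this and the unequal listing of the populations shaped the 74 was not tested. Among the 70 falls, the median was 2.06-fold in Big Horns and 3.84-fold in Black Hills, and 59 were larger in Black Hills. However, 66 of the falls are listed only within Black Hills, and their Big Horns levels were inferred with the Black Hills values. That listing by itself favors larger falls in Black Hills. For the 23 rises listed as higher in both populations, where nothing was inferred, the fold change was 3.15 to 24.57 in Big Horns (median 6.49) and 1.63 to 3.86 in Black Hills (median 2.13). It was larger in Big Horns for 22 of them, but the Big Horns comparison lists nothing under 3.13-fold, which by itself favors larger values there. The difference between the populations was not tested, because each population has 1 control plant, and plant and population cannot be told apart.

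The levels show where these differences lay. For the falls, the populations were further apart in control than in drought. The Black Hills control plant was higher than the Big Horns control plant for 61 of the 70 falls, with a median ratio of 1.98, while in drought 31 of 70 were higher in Black Hills, with a median ratio of 0.942. For the rises, the populations were further apart in drought. In control, 56 of 93 were higher in Black Hills with a median ratio of 1.27, and in drought 25 of 93 were, with a median ratio of 0.579. Each control level here is that of 1 plant, and 68 of the falls are listed as lower within Black Hills, a choice that by itself favors a high Black Hills control level. The rises were likewise chosen by their change, 44 of them listed within Big Horns, where nothing under 3.13-fold is listed, and 73 within Black Hills. How far that choice shaped their drought ratio was not tested.

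**Figure D3:**
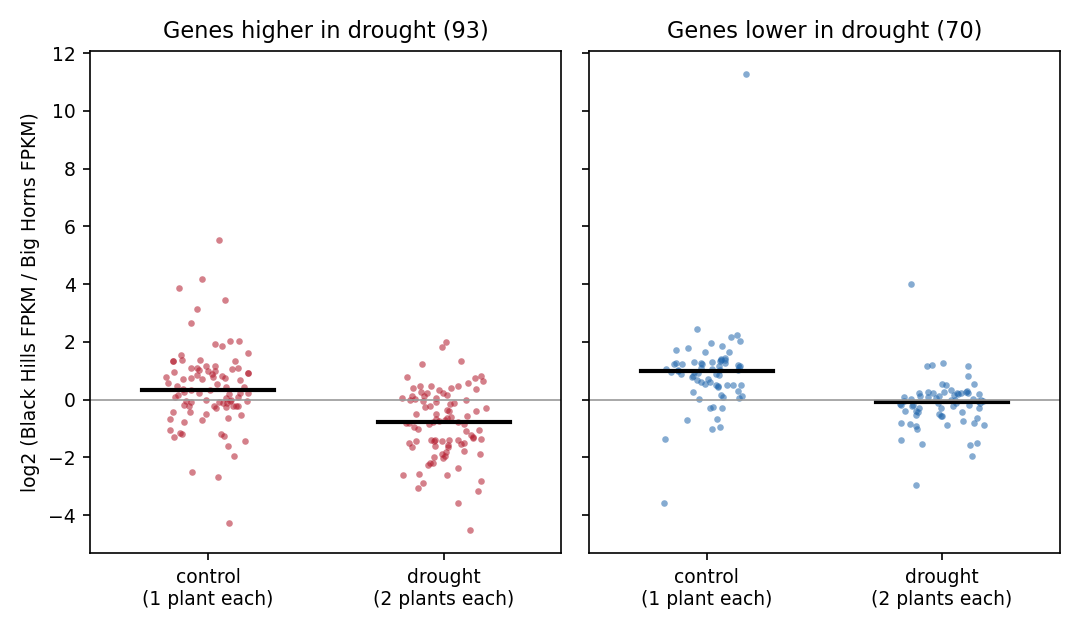
Log2 ratio of the Black Hills level to the Big Horns level in control and in drought, for the 93 rises and 70 falls with a level in both populations. Each point is a gene and the bar is the median over genes. The bar for the falls is high in control and close to 0 in drought, and the bar for the rises is below 0 in drought. The single point far above the others is a gene whose inferred Big Horns control level was close to 0.

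A change in opposite directions is listed for 1 gene, the 39th rise. It went from 1.95 to 70.3 FPKM in Big Horns and from 17.2 to 3.05 FPKM in Black Hills, and its pooled rise came from Big Horns alone. Another 12 rises are listed in neither population for drought, so no drought level within a population could be given for them. They were low in control, with a median of 2.74 FPKM and 8 of the 12 under 5 FPKM, and had a median of 18.9 FPKM in drought. Their pooled fold change was 2.32 to 13.5, with a median of 5.92. None of the falls was missing from both populations.

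The effect of drought could also be seen in plants that shared no sample with this comparison, the fed plants with drought against the fed plants without it. The fed plants were not balanced by population, with 3 of Big Horns and 2 of Black Hills under drought and 1 of each without it. Whether this imbalance shaped the fold changes in fed plants was not tested. That comparison lists 72 genes, 67 higher and 5 lower, which are 2.15% and 0.161% of the 3112 identifiers listed in any comparison. The lists shared 21 genes, 11.9% of the drought list and 29.2% of the list in fed plants. Of these, 12 were higher with drought in both, which is 11.3% of the rises here and 17.9% of those in fed plants. A further 3 were lower in both, 4.29% of the falls here and 60.0% of those in fed plants. The remaining 6 were lower with drought alone and higher with drought in fed plants, which is 8.57% of the falls here and 8.96% of the rises in fed plants. No rise was listed as lower in fed plants.

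The 12 shared rises had fold changes of 3.22 to 9.58 without larvae (median 4.56) and 3.10 to 12.93 with larvae (median 5.59). The gene with the largest gain in FPKM was among them, at 62.3 FPKM with herbivory and 422 FPKM with both (6.77-fold). So was the 33rd rise, which went from 45.7 to 202 FPKM without larvae and from 13.3 to 171 FPKM with them. The drought levels of this gene were close, and the larger change in fed plants went with a lower level in the plants without drought. Its control value without larvae came almost all from the Black Hills plant, at 92.6 FPKM. The inferred level of the Big Horns control plant was -1.31 FPKM, which is below 0, with an upper limit of 6.00 FPKM. Of the shared falls, Bostr.8819s0118 went from 43.3 to 3.32 FPKM in fed plants (13.05-fold), close in size to its 14.8-fold fall without larvae but from a lower level.

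The 6 genes with opposite directions fell 2.69-fold to 5.08-fold without larvae and rose 2.55-fold to 3.95-fold with them. The largest of these by level went from 125 to 42.7 FPKM with drought alone, and from 32.4 FPKM with herbivory to 128 FPKM with both. Control plants and plants with both challenges were close for this gene, and plants with either challenge alone were lower. Across the 6 genes the level with both challenges was 0.595 to 4.78 times that in control, and 4 of the 6 are listed as lower with herbivory alone, a comparison that uses the same control plants. None of the 6 reached a 4-fold change in both comparisons.

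**Figure D4:**
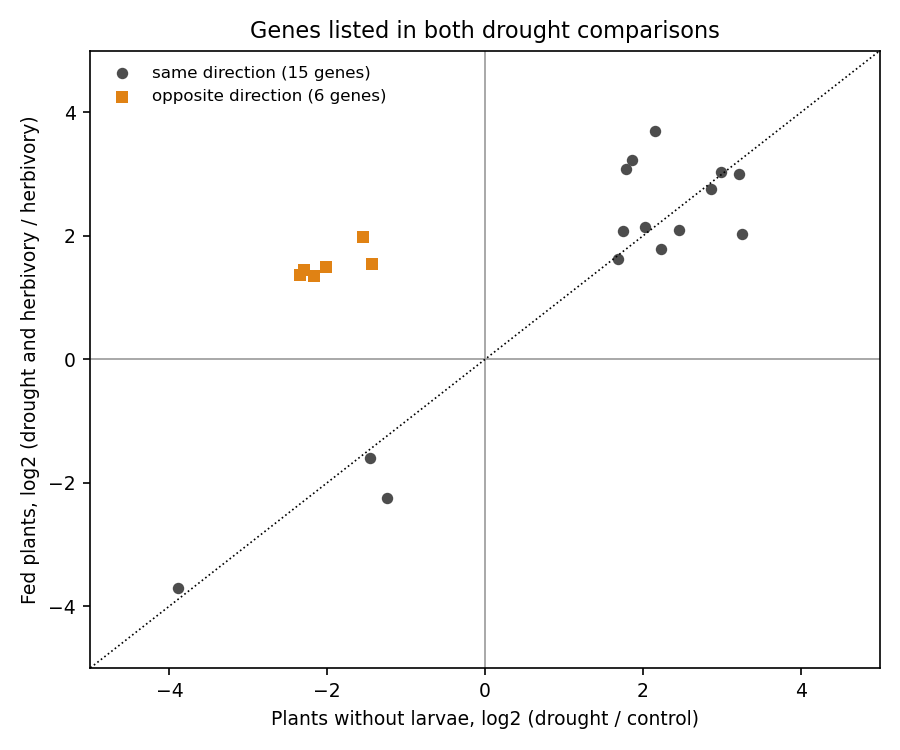
Log2 fold change with drought in plants without larvae (horizontal) and in fed plants (vertical) for the 21 genes listed in both comparisons, which share no plant. Each point is a gene and the dotted line marks equal changes. The 15 circles have the same direction in both, and the 6 squares were lower with drought alone and higher with drought in fed plants.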

How the data were processed

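RNA from whole shoots was sequenced as single reads by the authors. They aligned these to the Boechera stricta genome (TopHat2; build not given in the sources used here), built and merged transcript models (Cufflinks2, Cuffmerge2) and tested group differences with Cuffdiff2. FastQC 0.10.1 is also named in the submitters' processing notes. Each of 9 tables lists called genes only. Its fold change is a linear ratio between the FPKM of the groups, computed by the authors. Its FPKM, as deposited, adds the values of both groups. Its q-value (adjusted p-value) was computed by the authors with Cuffdiff2 and is at most 0.05. Within a population, control and herbivory values are those of 1 plant each. No drought plant had a value of its own and no counts were used, so depth and the spread among drought plants are unknown, and no test across plants was run.

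The summed FPKM was divided between the groups according to the fold change. The population levels were inferred from the pooled mean as described with the results. Both steps were run on simulated tables. Whether the limits of the inferred levels hold for genes other than those that gave the limits was not tested there. The same XLOC number was taken as the same transcript across tables. For all 7 XLOC numbers, the level of the group shared with another pooled table lay within 0.984 to 1.07 of the factor between the tables. Genes were named by rule as the 2 largest rises and 2 largest falls with at least 1 FPKM in both groups, and other genes described by rank were chosen after their values were seen. The members, gene lists and comparisons were chosen with earlier results of these data known. Python 3.11.15, pandas 2.3.3, numpy 2.4.6 and matplotlib 3.10.9 were used.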

Additional observations from a re-analysis of the deposited data

How the results depend on the processing

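Of 44 alternatives, 27 left a result within 1.5 times its value and 17 moved it. The 42 rises at 4-fold became 106 without a fold threshold, 9 at a log2 fold change of at least 3 and 16 at a q of at most 0.01. The 19 falls at 4-fold became 70, 1 at a log2 fold change of at least 3, and 11 with a pseudocount of 1 FPKM. Limited to genes with a 4-fold pooled change, rises listed within a population went from 44 to 14 in Big Horns and from 73 to 25 in Black Hills, and falls from 4 to 1 and from 68 to 18. At a q of at most 0.01 within the population, Big Horns kept 7 rises and 2 falls, where the smallest q listed was 0.00605. With a common minimum of 3.13-fold and a summed FPKM of 18.6 in both populations, Black Hills kept 18 rises and 45 falls. These minima are those of the Big Horns list, whose counts could not change. At 4-fold in both tables, genes shared with the fed plants went from 12 to 7 (both higher), from 3 to 1 (both lower) and from 6 to 0 (opposite). Scaling the population levels to the pooled table left 140 genes with the same direction and 23 undecided, with 72 rises larger in Big Horns and 58 falls larger in Black Hills. Each fold threshold moves these counts by removing genes, and other causes were not tested. No paired analysis was possible because the results come from no test across plants and the drought plants have no values of their own. For the latter reason no drought plant could be left out.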

Other observations

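Position in the genome was not used to choose the genes. The 169 listed genes with a genome identifier lay on 68 scaffolds, 28 of which held 1 listed gene. Consecutive identifiers formed 6 pairs of 11 genes. In 1 pair both genes were higher with drought, by 9.58-fold and 9.28-fold. Both are also among the rises shared with the fed plants, where they went from 12.4 to 50.6 FPKM and from 5.62 to 44.9 FPKM. In 3 pairs both genes were lower, in one case from 224 to 91.6 FPKM and from 195 to 83.4 FPKM. The other 2 pairs formed a run of 3 genes with alternating directions, from 2.80 to 13.4 FPKM, from 53.0 to 19.7 FPKM and from 37.9 to 129 FPKM. Whether reads were shared between similar neighbouring genes was not tested.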
